A study of Mus musculus with 234 samples.

Results

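Single cardiomyocytes (CMs) of homozygous CAG-BAG3P209L mice were chosen by their measured level of Tnni1, and the CMs at the top of the ranking were compared with those at the bottom across all other genes. Tnni1 encodes slow skeletal troponin I, the isoform of the inhibitory troponin subunit that the fetal heart uses. Troponin I holds the thin filament in its blocked state when calcium is low. After birth the heart replaces Tnni1 with the cardiac isoform Tnni3, so that CMs of a young heart can carry differing amounts of both.

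The members were the CMs labelled homo_bright or homo_dim with 1000 or more genes detected, 142 of 148 homozygous cells and of 234 cells in the series. Each sample was 1 hand-picked cell, sequenced by the SMART-seq2 protocol, which reads whole transcripts without molecular identifiers. The homozygous cells came from 2 mice of the strain PGKcre:BAG3P209L_homo, M25 with 20 bright and 18 dim CMs and M116 with 56 bright and 48 dim CMs. These mice carry a floxed transgene for human BAG3 with the P209L substitution fused to eGFP in the Rosa26 locus, driven by the CAG promoter and switched on by PGK-Cre, and they were studied at 2 weeks of age. The transgene is expressed in a mosaic, and brightness was judged by eGFP under a fluorescence macroscope. Cells for comparison came from 1 heterozygous mouse, M72, of the strain PGKcre:BAG3P209L_het, whose age is not given in the sources used here. Others came from 2 control mice, M26 and M73, labelled wt in the sample names and C57BL/6 as strain. The study's methods describe controls as siblings that were wild type or carried PGK-Cre or the floxed transgene alone.

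Within each of the 4 combinations of mouse and brightness, cells were ranked by Tnni1, and the top 1 in 3 (Tnni1-high) and the bottom 1 in 3 (Tnni1-low) were taken, 18 and 18 cells in M116 bright, 16 and 16 in M116 dim, and 6 and 6 in both M25 bright and M25 dim. This gave 46 Tnni1-high and 46 Tnni1-low CMs, with 50 cells between them that were not compared. Because Tnni1 chose the groups, its values are a description and were not tested.

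In M116 bright, Tnni1 ran from 0 to 3230 CPM, where CPM is a gene's count scaled to a common total per cell. The Tnni1-high cells there began at 407 CPM, just above a highest middle cell of 381 CPM, and the Tnni1-low cells ended at 134 CPM, just below a lowest middle cell of 159 CPM. M116 dim was alike, with Tnni1-high cells from 425 to 1118 CPM, Tnni1-low cells from 0 to 119 CPM, and middle cells from 135 to 387 CPM. Levels in M25 were lower throughout. In M25 bright the Tnni1-high cells held 109 to 1523 CPM, the Tnni1-low cells 0 to 18.8 CPM, and the middle 21.6 to 96.2 CPM. In M25 dim the Tnni1-high cells held 46.0 to 455 CPM, the middle 0 to 30.6 CPM, and all 6 Tnni1-low cells were at 0. A Tnni1-high cell of M25 dim could therefore hold less Tnni1 than a Tnni1-low cell of M116. M25 dim had 7 cells at 0 for 6 places among its Tnni1-low cells, and the tie was broken by the order of deposition.

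**Figure D1:**
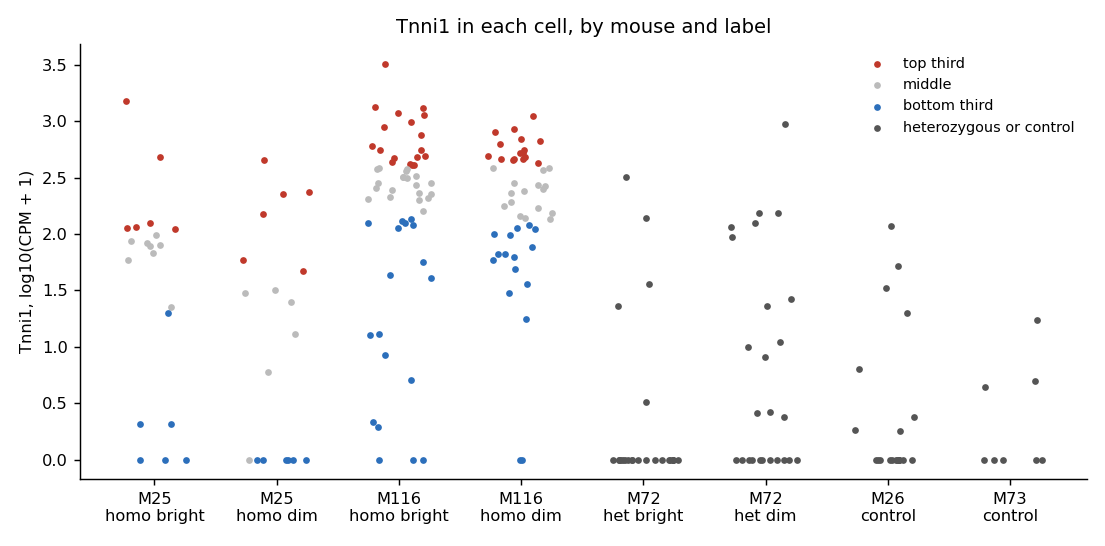
Tnni1 in every CM with 1000 or more genes detected, as log10(CPM + 1), with 1 point per cell and columns for mouse and label. Red and blue points are the Tnni1-high and Tnni1-low homozygous cells, grey points lie between them, and dark points are heterozygous and control cells, most of which sit at 0 except in the dim cells of M72.

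The median Tnni1 level over all cells was 276 CPM in M116 bright, 235 CPM in M116 dim, 78.5 CPM in M25 bright and 17.9 CPM in M25 dim. It was 1.60 CPM in the dim cells of the heterozygous mouse and 0 in its bright cells and in both controls. Cells without a Tnni1 count made up 5.36% of M116 bright, 4.17% of M116 dim, 15% of M25 bright and 38.9% of M25 dim, against 79.2% of bright and 44.0% of dim heterozygous cells, 60.0% of M26 and 62.5% of M73. The order thus ran M116, M25, M72 dim and then the rest, and the ranges of the individual cells overlapped at every step. With 2 homozygous mice processed on different plates, a difference between the mice and a difference between plates cannot be told apart.

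For reference, the 250 bases before the annotated start of Tnni1, which chose the groups, and of Acta1, the higher gene with the smallest p in the comparison, are given 5′ to 3′ from RefSeq (build GRCm38.p6). Capitals mark the E-box letters CANNTG, which read the same on both strands, and the letters CATTCC on either strand. The sequence of Tnni1 lies at chr1:135799171-135799420 on the + strand and belongs to the upstream of 2 start sites in the table. The sequence of Acta1 lies at chr8:123894776-123895025 on the - strand.
Tnni1: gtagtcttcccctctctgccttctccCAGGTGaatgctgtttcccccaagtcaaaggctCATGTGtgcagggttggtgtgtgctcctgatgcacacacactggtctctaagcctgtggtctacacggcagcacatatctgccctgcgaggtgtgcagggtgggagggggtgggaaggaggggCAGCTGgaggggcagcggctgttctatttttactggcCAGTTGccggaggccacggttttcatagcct
Acta1: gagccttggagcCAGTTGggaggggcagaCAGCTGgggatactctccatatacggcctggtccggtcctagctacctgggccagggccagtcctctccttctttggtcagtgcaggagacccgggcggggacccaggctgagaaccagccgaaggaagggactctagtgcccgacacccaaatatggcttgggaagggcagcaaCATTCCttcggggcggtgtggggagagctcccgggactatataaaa
CANNTG, which myogenic and other bHLH factors bind, occurred 4 times before Tnni1 and 2 times before Acta1. Of 32851 windows of this length in the table, 66.2% held it. CATTCC, the core of the M-CAT element read by TEAD factors, occurred 0 times before Tnni1 and 1 time before Acta1, and 12.6% of all windows held it. No match of one motif overlapped one of the other, and a match describes the letters only.

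The 9 cardiomyocyte markers other than Tnni1 summed to a median of 74015 CPM over the 142 cells and to 40764 CPM or more in all but 2 of them. Both exceptions were Tnni1-low cells of M25 bright. In one of these the cardiomyocyte markers summed to 214 CPM while 10 fibroblast markers summed to 52744 CPM, so that the markers go against the label CM in that well. The other had 1933 CPM of cardiomyocyte markers and 1117 genes detected. A further pair of Tnni1-low wells, in M116 dim and M25 dim, held 2350.0 and 1696 CPM of 10 macrophage and leukocyte markers beside 61294 and 81669 CPM of cardiomyocyte markers. Wells with 500 CPM or more of either marker sum numbered 4 of 46 among Tnni1-high cells, all of them by fibroblast markers, and 6 of 46 among Tnni1-low cells, 4 by fibroblast and 2 by immune markers. Among the Tnni1-high cells of M116 bright, 4 had only 4259 to 98262 counts, with 2 to 40 Tnni1 counts behind their level; no other ranked cell had fewer than 200000.

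**Figure D2:**
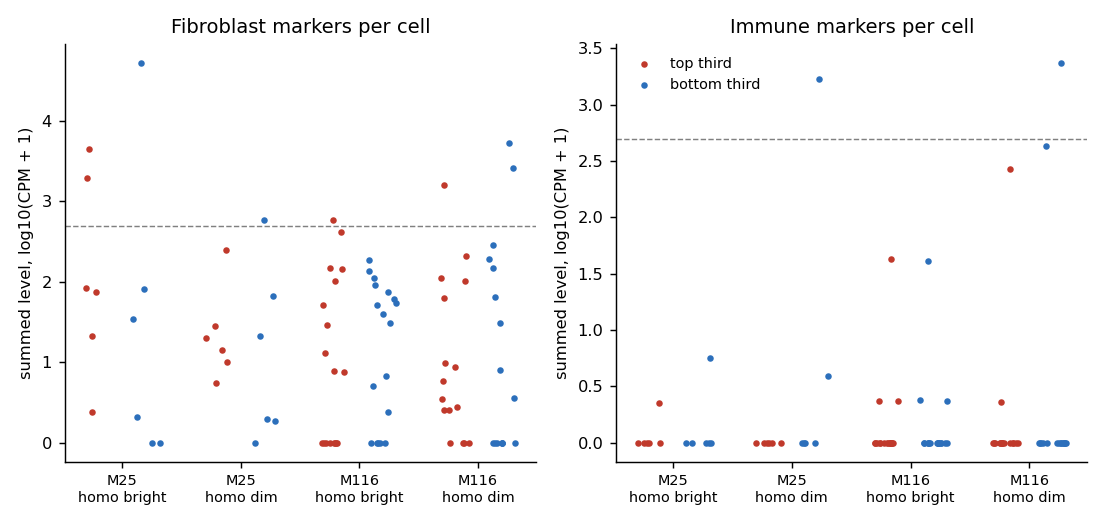
Summed level of the fibroblast markers (left) and of the macrophage and leukocyte markers (right) in each Tnni1-high (red) and Tnni1-low (blue) cell, as log10(CPM + 1), by mouse and brightness. The dashed line is at 500 CPM; the highest fibroblast point, at 52744 CPM, is a Tnni1-low cell of M25 bright, and the 2 immune points above the line are Tnni1-low cells.

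Other measures of the 8 groups of cells showed no common direction. The median number of genes detected was 7428 in Tnni1-high and 5405 in Tnni1-low cells of M25 bright, and 7474.5 against 5815 in M25 dim, but 5542.5 against 5785 in M116 bright and 5663 against 5426.5 in M116 dim. The mitochondrially encoded protein genes took a median of 13.6% to 15.8% of counts in the 8 groups. In M116 bright, 5 Tnni1-high and 12 Tnni1-low cells came from plate GL9989-2, and 13 and 6 from plate GL9989-3. The part of these measures in the results was not tested, but the counts of calls below are also given without the wells that held markers of other cells, and ranking within plates is among the alternatives.

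The comparison asks which genes differ between CMs with much of the fetal troponin isoform and CMs of the same heart with little of it. Summing the counts of the cells within a mouse gave 12281916 and 10498180 counts for Tnni1-high and Tnni1-low cells of M25, and 22540688 and 26271305 for M116. With the mouse as the replicate, the quasi-likelihood test of edgeR, adjusted by Benjamini-Hochberg, called 0 of 12445 genes (0%) at an adjusted p under 0.05. The smallest adjusted p was 0.886. Before adjustment, 320 genes (2.57%) lay under a p of 0.05, 104 of them higher (0.836%) and 216 lower (1.74%) in Tnni1-high cells. With equal weight per cell the limma test also called 0, and that split turned to 381 higher and 60 lower, around a median log2 value of 0.24 over all genes. From these sums DESeq2 called 96 (0.771%), of which 8 were higher and 88 lower. With the wells of 500 CPM or more left out of the groups as first ranked, DESeq2 called 7 of 12029 (0.0582%), 3 higher and 4 lower, of which 2 and 4 were among its earlier calls. With the remaining cells ranked anew, which also redrew the groups, it called 4 of 12009 (0.0333%), all of them lower, of which 3 were among the 88. Values given below without the wells that held markers of other cells are those with the new ranking unless the first ranking is named.

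The mice did not order the genes alike. Among 6668 genes with a mean of at least 10 CPM, the log2 ratios of Tnni1-high to Tnni1-low in M25 and in M116 had a Pearson r of 0.018 and a Spearman rho of 0.0029, and 49.6% of genes had the same sign in both. Between pairs of the 4 mouse and brightness combinations rho ran from -0.041 to 0.033. These are values across genes, which are not independent replicates. In all, 3241 genes (26%) were higher and 2835 (22.8%) lower in both mice. Of the 12445 genes, 831 (6.68%) were higher and 567 (4.56%) lower in all 4 combinations. The median standard error of a gene at 10 CPM or more was 0.48 on the log2 scale, so small changes were not detectable for most of them at this number of mice.

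**Figure D3:**
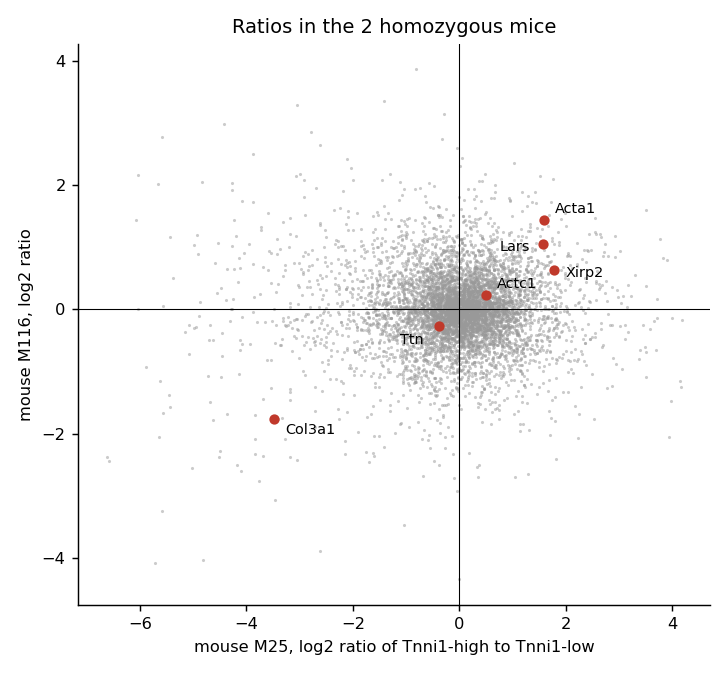
Log2 ratio of Tnni1-high to Tnni1-low cells in mouse M25 (x axis) and mouse M116 (y axis) for 6668 genes with a mean of at least 10 CPM, 1 point per gene. The cloud has no slope (Spearman rho 0.0029); Acta1 and Actc1 lie in the upper right and Ttn in the lower left quadrant, named in red with Lars, Xirp2 and Col3a1.

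Of the sarcomere genes, the actins and titin came nearest to a shared difference. No gene passed the test, so the genes that follow are from the 5 with the smallest p in each direction among those that moved the same way in all 4 combinations, and their values are given without a claim of change. Gene levels in summed cells are CPM scaled by TMM factors, while levels of single cells, marker sums and sums without the highest cell are CPM of the plain totals. The fold changes are those of edgeR, with their standard errors (SE) over 2 mice.

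Acta1, skeletal alpha-actin, which the fetal heart and stressed heart muscle express beside cardiac actin, was at 439 CPM in Tnni1-high and 147 CPM in Tnni1-low cells of M25, and at 618 and 228 CPM in M116. The log2 fold change was 1.51 (SE 0.17, unadjusted p = 0.00047 by edgeR's quasi-likelihood test, adjusted p = 1). In the separate combinations the sums were 129 against 1.39 CPM in M25 bright, 733 against 253 CPM in M25 dim, 1055 against 362 CPM in M116 bright and 155 against 78.3 CPM in M116 dim. Cells overlapped in all 4 combinations, and few cells carried the sums. In M116 bright the Tnni1-high cells ran from 0 to 12930.2 CPM with a median of 44.2 CPM, and the Tnni1-low cells from 0 to 4968 CPM with a median of 2.77 CPM. In M116 dim the medians went the other way, 0 CPM in Tnni1-high and 12.01 CPM in Tnni1-low cells. One cell supplied 54.4% of all Acta1 counts of the Tnni1-high cells, and one supplied 91.8% of those of the Tnni1-low cells of M25. Without the highest cell of each group, Acta1 was at 205 and 13.01 CPM in M25 and at 172 and 81.2 CPM in M116, higher in Tnni1-high cells in both. DESeq2 called Acta1 with an adjusted p of 1.3e-10, and Acta1 was not among its calls without the wells that held markers of other cells, under either ranking (DESeq2 adjusted p = 0.68 with the first). With the first ranking kept, edgeR gave 515 against 13.1 CPM in M25 and 658 against 242 CPM in M116.

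Actc1, cardiac alpha-actin and the main actin of the heart, was spread over all cells. It was at 25286 CPM in Tnni1-high and 18204 CPM in Tnni1-low cells of M25 and at 22393 and 19053 CPM in M116, a log2 fold change of 0.35 (SE 0.09, edgeR adjusted p = 1). No cell held more than 4.27% of its counts in Tnni1-high cells. The medians over cells were higher in Tnni1-high cells in every combination, 22463 against 15693 CPM in M25 bright, 25364 against 19153 CPM in M25 dim, 21354 against 19488 CPM in M116 bright and 22736 against 17940 CPM in M116 dim, with overlapping ranges. The Tnni1-low median of M25 bright included the 2 wells with few counts of cardiomyocyte markers, at 62.4 and 247 CPM of Actc1. Without the wells that held markers of other cells the log2 fold change was 0.26. Actc1 also had the highest mean rank correlation with Tnni1 within the combinations, 0.41, of 4352 genes with a count in 50% or more of the cells of each. Acta1, Actc1 and Acta2 encode nearly identical proteins, and reads that fit more than 1 of them could be lost or split in the counting.

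Ttn, the giant spring protein of the sarcomere, was at 15193 CPM in Tnni1-high and 19965 CPM in Tnni1-low cells of M25 and at 19503 and 23530 CPM in M116, a log2 fold change of -0.33 (SE 0.07, edgeR adjusted p = 1). The difference was near 0 in M116 dim, with 21955 against 22261 CPM. The medians over cells were 20711 and 19462 CPM in M116 bright and 22569 and 21159 CPM in M116 dim, higher in Tnni1-high cells, while the highest Tnni1-low cell of M116 bright reached 66245 CPM and the highest Tnni1-high cell 28543 CPM. With each cell given equal weight the log2 fold change was 0.23, at the median of 0.24 that this weighting gave over all genes. The weighting kept the 2 Tnni1-low wells of M25 bright with few counts of cardiomyocyte markers, at 58.9 and 255 CPM of Ttn. With these 2 and the wells that held markers of other cells left out, the fit to the sums gave -0.36.

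**Figure D4:**
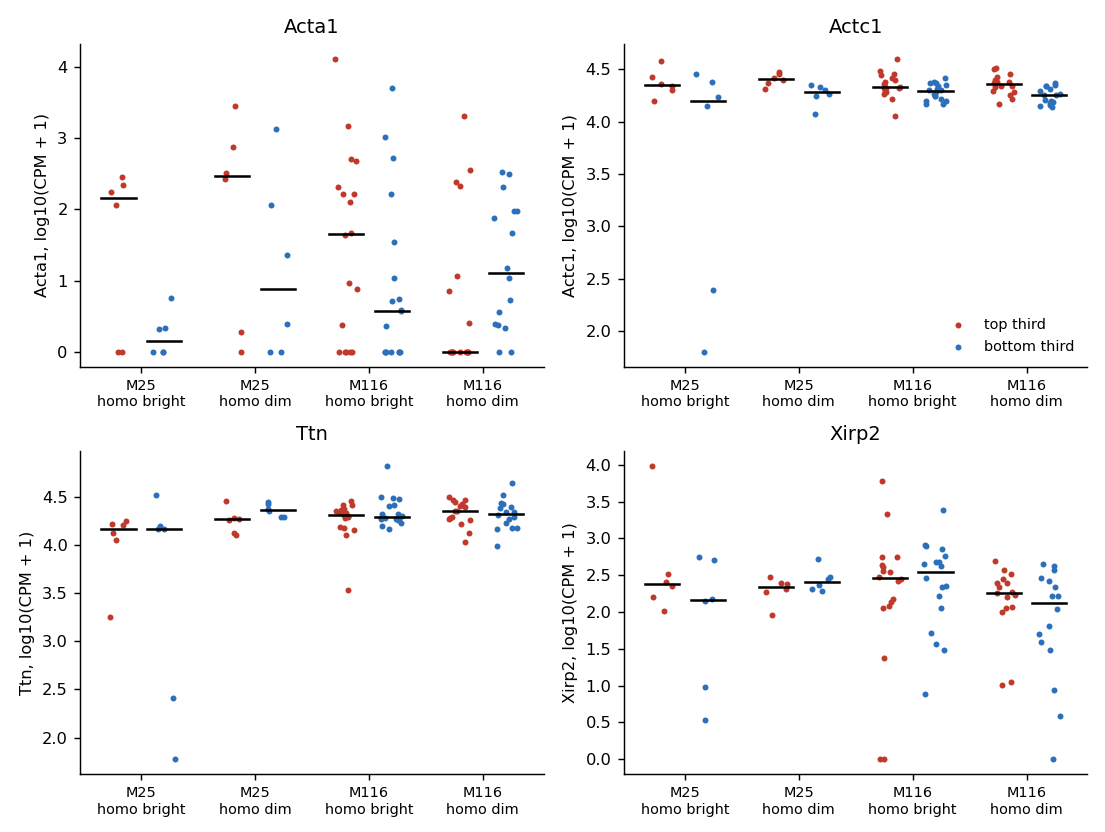
Acta1, Actc1, Ttn and Xirp2 in each Tnni1-high (red) and Tnni1-low (blue) cell, as log10(CPM + 1), by mouse and brightness; black bars are medians. The groups overlap in each gene; Acta1 and Xirp2 reach their highest levels in single cells, and the 2 lowest blue points of M25 bright for Actc1 and Ttn are the wells with few counts of cardiomyocyte markers.

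Lars and Tgm2 were also among the higher genes. Lars, the cytosolic leucyl-tRNA synthetase, was at 115 against 38.5 CPM in M25 and 107 against 50.8 CPM in M116 (log2 fold change 1.32, SE 0.29). Tgm2, a transglutaminase, was at 86.9 against 34.6 CPM and 76.2 against 29.9 CPM (1.34, SE 0.30). Both had an edgeR adjusted p of 1. The highest cell held 23.2% and 10.4% of their Tnni1-high counts. Leaving out the wells that held markers of other cells gave 1.12 and 1.04. DESeq2 called neither Lars nor Tgm2.

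The lower set apart from Ttn was of another kind. Ctif, a translation factor that works with the nuclear cap-binding complex, was at 1.82 against 57.7 CPM in M25 and 0.213 against 2.86 CPM in M116. Ppp1r12c, a regulatory subunit of myosin phosphatase, was at 11.8 against 68.6 CPM and 2.51 against 12.8 CPM. Cmip and Fbxl7, the latter an F-box protein, had 0 counts in the Tnni1-high cells of M116, where the Tnni1-low cells had 130 and 84 counts. In each of these 4 genes the highest cell among Tnni1-low cells was the M25 bright well with 52744 CPM of fibroblast markers, which held 79.0% of the Ctif, 60.8% of the Ppp1r12c, 68.7% of the Cmip and 86.6% of the Fbxl7 counts. Without the wells that held markers of other cells the log2 fold changes were -1.35 for Ppp1r12c (SE 1.18), -2.13 for Cmip (SE 1.76) and -1.36 for Fbxl7 (SE 4.48), against -2.44, -5.79 and -5.17 with all wells. With the first ranking kept, which changes the wells alone, they were -1.29 for Ppp1r12c (SE 1.17), -4.17 for Cmip (SE 2.61) and -1.39 for Fbxl7 (SE 4.32). Ctif stood at -4.70 after the new ranking (SE 2.76) against -4.42 with all wells, from 0 against 1.34 CPM in M25 and 0.23 against 3.02 CPM in M116, and a fitted fold against a group at 0 is no bound.

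Single cells also held much of the counts behind the lower calls of DESeq2. In 69 of the 88 genes 1 cell held 50% or more of the Tnni1-low counts, with a median of 73.2%, and in 73 of them the highest cell was the M25 bright fibroblast-marker well (57 genes) or one of the 2 wells with immune markers (13 and 3 genes). C1qc and Csf1r, a complement gene and a receptor of macrophages, had 0 counts in the Tnni1-high cells of both mice and 550 and 459 counts in Tnni1-low cells, at least 174-fold and 145-fold lower against a floor of 3 counts over the group. These counts came from 1 or 2 cells in each mouse, and both genes passed the filter on low counts through the Tnni1-low cells alone. Of the 4 genes that DESeq2 called without those wells after the new ranking, Cdk1 and Cdt1, which act in mitosis and in the licensing of replication, and Aacs, acetoacetyl-CoA synthetase, were already among the 88. With the first ranking they were called again. Cdk1 was counted in 7 Tnni1-low cells of M116 and 2 of M25, and 1 cell held 51.0% of its Tnni1-low counts. It was also counted in 4 Tnni1-high cells of M116, with 29 counts against 604. Aacs was counted in 1 Tnni1-low cell of M25 and 2 of M116, and in 1 and 2 Tnni1-high cells. A single cell held 60.9% of the Tnni1-low counts of Aacs. Of the 8 genes DESeq2 called higher, Acta1 alone drew more than 50% of its Tnni1-high counts over both mice from 1 cell. Beside Acta1 they included Ankrd1 and Xirp2, described below, Clu, which encodes the secreted chaperone clusterin, and Slc26a10, Serpinb1c and Car7. In M25, 1 cell held 94.2% of the Tnni1-high counts of Serpinb1c, 79.6% of Slc26a10, 79.5% of Xirp2 and 75.8% of Car7. For Clu and Ankrd1 that share was 42.2% and 41.8%. Serpinb1c was counted in 2 Tnni1-high cells of each mouse and Car7 in 4, and neither in a Tnni1-low cell.

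The gene lists place these genes among their pathways. No member of any list passed the edgeR test. Against a median log2 fold change of 0.03 over all 12445 genes, the 9 tested isoforms of the fetal, slow and skeletal sarcomere had a median of 0.51, with 8 higher and 1 lower. Of these, 4 were higher in both mice, beside 26% of all genes, and the median was 0.28 without the wells that held markers of other cells. The medians of the log2 ratios within a mouse were 0.22 in M25 and 0.18 in M116. Acta2 was on this list and on that of smooth muscle markers. Myh7, the slow myosin heavy chain of the fetal mouse ventricle, was at 105 against 77.7 CPM in M25 and 141 against 124 CPM in M116, higher in all 4 combinations (0.31, SE 0.23), but its log2 fold change was 0.00 without the wells that held markers of other cells. Tnnt1, slow skeletal troponin T and a binding partner of Tnni1 in slow muscle, was at 23.7 against 31.1 CPM and 22.4 against 20.8 CPM. The 18 genes of the adult sarcomere had a median of 0.01, 9 higher and 9 lower. Tnni3, the isoform that replaces Tnni1, was at 8562 against 10018 CPM in M25 and 6921 against 7439 CPM in M116, lower in all 4 combinations with log2 ratios from -0.34 to -0.077 (-0.17, SE 0.08, unadjusted p = 0.11 by edgeR's quasi-likelihood test). Its medians over cells were lower in Tnni1-high cells of both dim combinations and higher in both bright ones, 10238 against 9311 CPM in M25 and 7542 against 7041 CPM in M116, and with equal weight per cell its log2 fold change was 0.42, where the median of all genes was 0.24. In M25 bright both measures kept the 2 Tnni1-low wells with few counts of cardiomyocyte markers, at 24.7 and 108 CPM of Tnni3. Without the wells that held markers of other cells, in the first ranking, the log2 fold change of Tnni3 in the sums was -0.19. Myh6, the fast myosin heavy chain of the adult mouse heart, was at 7500 against 9517 CPM and 7805 against 8858 CPM (-0.26, SE 0.09) and was at 0.36 with equal weight per cell, beside that median of 0.24. The 2 wells with few counts of cardiomyocyte markers held 23.5 and 86.5 CPM of Myh6.

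Of the 13 genes of the fetal heart program as the study lists it, 6 were higher and 7 lower, with a median of -0.02. The natriuretic peptide genes, released from stretched heart muscle, were higher in both mice. Nppb was at 1104 against 729 CPM in M25 and 539 against 476 CPM in M116 (0.39, SE 0.17), and Nppa at 564 against 411 CPM and 144 against 121 CPM (0.35, SE 0.17). Without the wells that held markers of other cells they stood at 0.15 and -0.07. Nppa was at 0 in 9 of 18 Tnni1-high and 11 of 18 Tnni1-low cells of M116 bright. Among 21 genes of stretch and remodelling, 16 were higher and the median was 0.19. Ankrd1, a stretch-responsive titin-binding protein, was at 1434 against 955 CPM and 1322 against 884 CPM (0.58, SE 0.12), higher in 3 of the 4 combinations, and was called by DESeq2 (adjusted p = 0.013); without the wells that held markers of other cells its log2 fold change was 0.21 and it was not called. Xirp2, an actin-binding protein of the intercalated disc, was at 954 against 279 CPM and 506 against 324 CPM (1.21, SE 0.31). A single Tnni1-high cell of M25 bright at 9709 CPM held 79.5% of the Xirp2 counts of Tnni1-high cells in M25, and without the highest cell of each group the ratio in M25 was -0.23 on the log2 scale. Without the wells that held markers of other cells the log2 fold change of Xirp2 was 0.12. The cell at 9709 CPM, with 1932 CPM of fibroblast and 70630 CPM of cardiomyocyte markers, was among the wells left out. It also held 1523 CPM of Tnni1, 113 CPM of Acta1, 7676 CPM of Ankrd1 and 3066 CPM of Nppa. In M116 bright the cell with the most Tnni1 stood at 3230 CPM. It held 12930 CPM of Acta1, 6006 CPM of Xirp2, 7670 CPM of Ankrd1 and 1794 CPM of Nppa. The list median fell to -0.01 without the wells that held markers of other cells.

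The transgene features differed in direction between the mice. The human BAG3 feature (hBAG) was at 116.2 against 249.3 CPM in M25 and 202 against 148 CPM in M116 (-0.33, SE 0.43), with 210 against 579 CPM in M25 bright and 146 against 42.2 CPM in M116 dim. The eGFP feature (BAG-eGFP) was at 92.3 against 127 CPM and 192 against 132 CPM, and mouse Bag3 at 217 against 182 CPM and 159 against 173 CPM. None of the 3 features kept one direction in both mice. Without the wells that held markers of other cells, in the first ranking, hBAG was at 80.1 against 244 CPM in M25 and 195 against 158 CPM in M116. By cells, 17 Tnni1-high and 13 Tnni1-low cells were in the top 1 in 3 for BAG-eGFP, and 9 and 22 in the bottom 1 in 3.

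Genes of heart maturation and energy supply stayed near the median of all genes. The 25 genes that rise in the maturing heart had a median of -0.03, with 11 higher, and the 22 genes that fall had a median of 0.01, with 12 higher. Cox7a1, a respiratory chain subunit of mature muscle, was at 983 against 1303 CPM and 756 against 905 CPM, lower in all 4 combinations (-0.33, SE 0.13). Medians were 0.08 for 20 genes of fatty acid oxidation, 0.07 for 19 of the TCA cycle, -0.02 for 95 nuclear genes of oxidative phosphorylation, -0.02 for 10 mitochondrially encoded genes, 0.08 for 19 of glycolysis and 0.02 for 18 of lipid uptake and PPAR targets. The fatty acid oxidation list lay at 0.27 in M25 and -0.14 in M116, the mitochondrially encoded list at 0.24 and -0.18, the TCA cycle list at 0.20 and -0.093, the lipid list at 0.16 and -0.066 and the oxidative phosphorylation list at 0.02 and -0.05, so that the directions of these 5 lists differed between the mice. Ucp3, a mitochondrial carrier induced by fatty acids, was at 14.6 against 35.5 CPM and 8.95 against 38.3 CPM (-1.69, SE 0.52).

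Genes of the integrated stress response, by which cells slow translation and raise amino acid supply, held 1 member at an unadjusted p under 0.05. The share of all genes under that p was 2.57%. Of the 26 stress response genes tested, 21 were higher, with a median of 0.48 (0.51 in M25 and 0.22 in M116). In both mice 14 were higher, beside 26% of all genes, and DESeq2 called none of them. Most were counted at a few CPM. Mthfd2, a mitochondrial folate enzyme, was at 15.4 against 1.36 CPM and 9.07 against 3.25 CPM (2.46, SE 1.08), and Atf3, a stress-induced transcription factor, at 47.4 against 20.1 CPM and 301 against 264 CPM (0.71, SE 0.32). Sesn2 had 173 counts in Tnni1-high and 0 in Tnni1-low cells, at least 60.9-fold higher against a floor of 3 counts over the group, from 2 cells of M25 and 4 of M116. A single cell held 52.6% of these counts, and 1 cell held 83.7% of those in M25. Sesn2 passed the filter on low counts through the Tnni1-high cells alone, which fixed its direction. Atf4 was at 71.8 against 76.4 CPM and 114 against 96.8 CPM. The median was 0.23 without the wells that held markers of other cells.

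Of 27 BAG3 partners, small heat shock proteins and autophagy receptors, 20 were higher, with a median of 0.10 that was -0.0036 without those wells. Hspb7, a small heat shock protein of heart muscle that binds filamin C, was at 462 against 244 CPM and 404 against 291 CPM, higher in all 4 combinations (0.70, SE 0.19, and 0.40 without those wells). Hsph1, an HSP110 chaperone, was at 16.3 against 4.48 CPM and 25.3 against 9.31 CPM (1.64, SE 0.62). Hspb8, the small heat shock protein that BAG3 binds, was at 166 against 230 CPM and 151 against 175 CPM, lower in all 4 combinations (-0.34, SE 0.20). The proteasome list of 37 genes had a median of 0.03 and the list of 86 cytosolic ribosomal proteins one of -0.06.

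Calcium handling genes (18, median -0.02, 7 higher) and cardiac transcription factors (18, median -0.18, 7 higher) held no member at an unadjusted p under 0.05. Of all genes, 2.57% lay under that p. Tead1, a factor of the M-CAT element, was at 78.6 against 108 CPM and 103 against 122 CPM (-0.35, SE 0.24). Of 18 immediate-early genes, which dissociation of the heart also induces, 7 were higher and the median was -0.29, which became -0.04 without the wells that held markers of other cells. Of 22 cell cycle genes, 4 were higher and the median was -1.27 (-1.35 without those wells). In all, 3 had an unadjusted p under 0.05, all of them lower, beside 1.74% of all genes. Among them, Top2a was counted in 4 Tnni1-low cells of M25 and 8 of M116, and 1 cell held 71.2% of its Tnni1-low counts. It was also counted in 1 Tnni1-high cell of M25 and 5 of M116, with 1 and 266 counts against 245 and 1531.

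**Figure D5:**
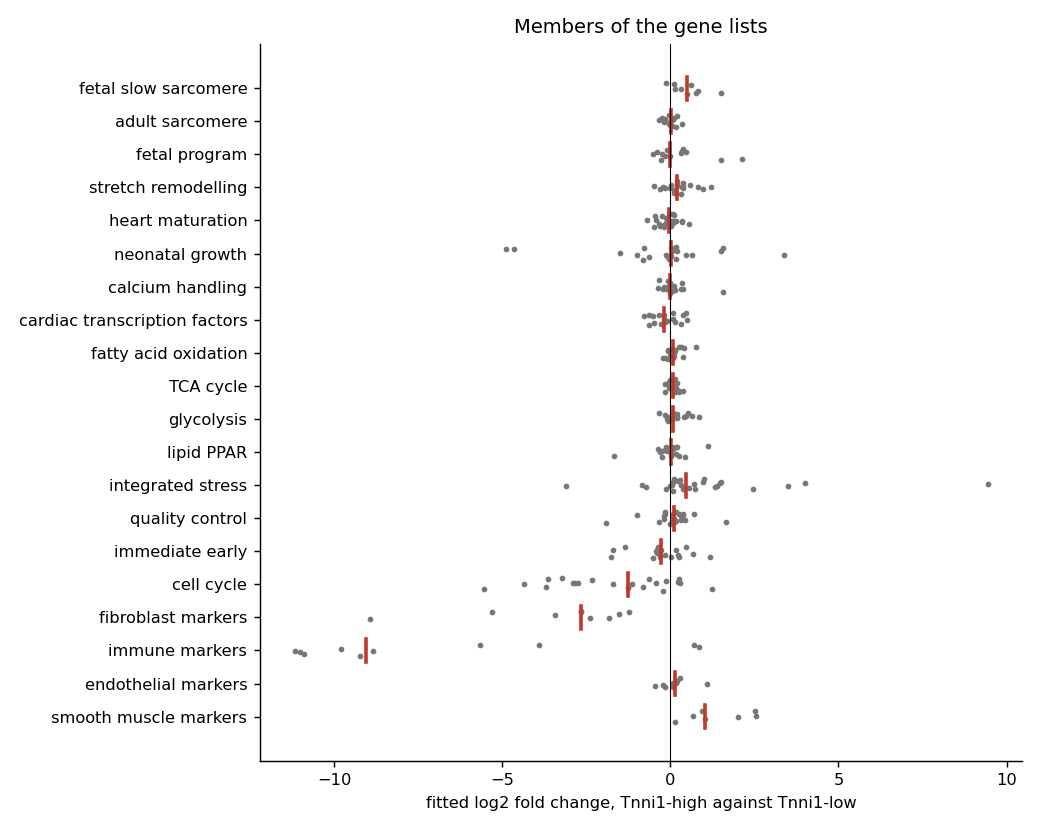
Fitted log2 fold change of Tnni1-high against Tnni1-low cells for the tested members of 20 gene lists (grey points, 1 per gene), with the list median in red. The adult sarcomere and energy lists sit near 0, the fetal sarcomere list at 0.51, the integrated stress list at 0.48, and the fibroblast and immune marker lists at -2.65 and -9.04; no gene shown passed the edgeR test.

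Among markers of other cell types, the fibroblast and immune lists lay farthest from the median of all genes. All 9 tested fibroblast markers were lower in the sums, with a median of -2.65, and 8 had an unadjusted p under 0.05, beside 1.74% of all genes that were lower at that p. Without the wells of 500 CPM or more, 6 were tested and their median was 0.85. Of 10 immune markers, 8 were lower, with a median of -9.04, or -6.68 with the 4 genes without a Tnni1-high count set at their bound, and 2 remained tested without those wells (median -0.29). The fibroblast markers summed to 972 against 9138 CPM in M25 bright, 54.2 against 111 CPM in M25 dim, 78.4 against 46.2 CPM in M116 bright and 149 against 616 CPM in M116 dim. All 7 tested markers of smooth muscle and pericytes were higher, with a median of 1.03 (0.41 without those wells). Their summed level was 1291 against 481 CPM in M25 bright and 2040.1 against 1203 CPM in M116 dim, but 1487 against 1574 CPM in M25 dim and 1699 against 1984 CPM in M116 bright. The 10 endothelial markers had a median of 0.14, at -0.53 in M25 and 0.54 in M116, and of -0.20 without those wells. Among atrial and conduction cell markers 7 were tested, with a median of 0.12, and of the red blood cell markers 1 was tested, at 0.37.

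Bright and dim cells were compared in the size of the contrast. Of 10415 genes, edgeR called 0 for a difference between them, with a smallest adjusted p of 1, and 301 (2.89%) had an unadjusted p under 0.05, 146 larger in bright and 155 larger in dim cells, or 237 and 96 with library size scaling. On the log2 scale, bright minus dim, Ttn differed by -0.48 (unadjusted p = 0.0083), Actc1 by -0.27 (unadjusted p = 0.096) and Acta1 by 2.31 (unadjusted p = 0.16), all by edgeR's quasi-likelihood test and with an adjusted p of 1. Bright and dim cells came from the same 2 mice, so these p-values are over 4 combinations and not over animals.

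Rankings by other genes were made by the same rule, so that 46 of the 142 cells were in the top group for each. Of the 46 Tnni1-high cells, 21 were also in the top 1 in 3 for Nppa, 21 for Myl4, an atrial myosin light chain that the fetal ventricle also uses, 21 for Acta1, 20 for hBAG, 16 for Myh7, 16 for Ankrd1 and 14 for Tnni3. Of the 46 Tnni1-low cells, 11, 8, 14, 13, 10, 14 and 19 were in those top groups. For Acta1 the Tnni1-high cells were also 15 times in the bottom group and the Tnni1-low cells 12 times. The counts of Tnni1-high cells for Myh7, Ankrd1 and Tnni3 lay near the share of 46 in 142. Many cells held 0 counts of Nppa, Myl4 or Acta1, and ties were broken by the order of deposition. Beside Actc1, the genes with the highest mean rank correlation with Tnni1 within the combinations were Sh3bgr (0.39), Hsbp1 (0.39), Ywhae (0.38), Tmem53 (0.37), Pigq (0.36), Chmp1a (0.36), Mfap1b (0.36), Nap1l4 (0.35) and Lars (0.35). The lowest were Lars2 (-0.34), Dnajc30 (-0.26), ND4 (-0.26), ND6 (-0.25) and Tsc22d4 (-0.24). Each value is a mean over 4 sets of 18 to 56 cells that share a mouse and plates, with depth in common to all genes of a cell, beside a median of 0.074 over the 4352 genes. The values varied between combinations: Sh3bgr stood at 0.69 and 0.61 in M25 bright and dim and at 0.08 and 0.17 in M116 bright and dim, while Dnajc30 stood at 0.06 and -0.30 in M25 and at -0.28 and -0.53 in M116.

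In cells the ranking rule did not use, the same split of heterozygous and control CMs gave values without a test, from 1 mouse each and 2 to 8 cells a group. Actc1 was at 16138 against 15822 CPM in M72 bright, 17002 against 14448 CPM in M72 dim, 24316 against 22538 CPM in M26 and 12805 against 12395 CPM in M73, higher in all 4 with log2 ratios of 0.03 to 0.23. Acta1 was at 13.5 against 7.58 CPM and 183 against 22.9 CPM in M72 bright and dim, at 408 against 25.9 CPM in M26 and at 2.47 against 3.08 CPM in M73. Lars was higher in M72 bright alone. Ttn was lower in M72 dim and M26 and higher in M72 bright and M73. In M72 bright, 19 of 24 cells had no Tnni1 count, and 3 of its Tnni1-high cells were at 0.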

How the data were processed

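The authors sequenced single hand-picked CMs by SMART-seq2 (Nextera libraries, paired reads) and aligned the reads by STAR, with sequences of human BAG3 and eGFP added to the mouse reference. The genome build, annotation and strand setting are not given in the sources used here. The authors deposited raw counts per gene and cell from STAR's gene counting, 55538 features of which 23664 had a count. The 142 ranked cells held 4259 to 1392253 counts (median 788796.5), and without molecular identifiers intervals and floors cover counting error only. Wells were hand-picked, and no doublet caller was run.

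Cells were ranked by Tnni1 CPM within mouse and brightness, and counts of the top and bottom 1 in 3 cells were summed per mouse (4 sums). edgeR 4.0.16 (R 4.3.3) was run with its filter on low counts, TMM factors, mouse as block and the quasi-likelihood test, with Benjamini-Hochberg adjustment over 12445 genes and Tnni1 left out. The study's test over pooled cells takes cells as replicates and was not used. The mouse block pairs cells of the same animal, which the sample names give. Log2 ratios per mouse or combination add 1 to CPM. DESeq2 1.42.0 and limma 3.58.1 were alternatives. The fitting script was tested on simulated data.

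Genes named beyond the lists were the 5 with the smallest p in each direction that moved alike in all 4 combinations, at a mean of 5 CPM or more; predicted genes and repeated symbols were counted but not named. Some genes are not reported here. The genes called by DESeq2 were named after their values were seen. The members, gene lists and this rule were chosen with earlier results of these data known. Leaving out wells with 500 CPM or more of fibroblast or immune markers before ranking or after it, also with wells under 10000 CPM of cardiomyocyte markers, and leaving out the highest cell of each group or sum were chosen after seeing the data.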

Additional observations from a re-analysis of the deposited data

Results flagged for a closer look

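Cells that stood far from the others of their group were looked for in M25, whose groups held 6 cells, for Tnni1, Acta1, Xirp2 and the fibroblast and immune marker sums. The rule flags about 1 in 20 groups by chance where values spread normally, which single-cell CPM with many zeros do not, and Tnni1 itself chose the cells, so the values are a description and their number was not read as a result. Among the Tnni1-high cells of M25 bright a cell stood at 1523 CPM of Tnni1 beside a next value of 478 CPM. The same cell stood at 9709 CPM of Xirp2 beside 328 CPM. The immune markers of this group were 1.23 CPM in 1 cell and 0 in the others. Among the Tnni1-low cells of M25 bright those that stood apart held 18.8 CPM of Tnni1, 4.71 CPM of Acta1, 52744 CPM of fibroblast markers and 4.71 CPM of immune markers. Among the Tnni1-high cells of M25 dim they held 2781 CPM of Acta1 and 246 CPM of fibroblast markers. Among the Tnni1-low cells of M25 dim they held 1327 CPM of Acta1, 524 CPM of Xirp2, 581 CPM of fibroblast markers and 1696 CPM of immune markers.

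Outside the comparison, Tnni1 over the cells of the heterozygous mouse M72 summed to 24.1 CPM in bright and 72.01 CPM in dim cells, beside 12.4 CPM in the higher of both control mice. Single cells carried much of these sums. Without its highest cell, at 322 CPM, M72 bright summed to 10.05 CPM, and without its highest cell, at 944 CPM, M72 dim summed to 30.26 CPM, where M26 without its own highest cell summed to 6.58 CPM. Cells at 0 made up 79.2% of M72 bright, more than in either control. The difference was not tested, since there was 1 heterozygous mouse.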

How the results depend on the processing

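With edgeR the count of genes past an adjusted p of 0.05 was 0 in both directions under the alternatives run, except for 1 lower gene (Col6a2, named after its value was seen) with the top and bottom 1 in 4 cells in place of 1 in 3 (108 higher and 220 lower at an unadjusted p under 0.05). DESeq2 gave 8 higher and 88 lower genes, 3 and 4 without the wells of 500 CPM or more of fibroblast or immune markers in the groups as first ranked (edgeR 199 and 187 at an unadjusted p under 0.05), and 0 and 4 with the remaining cells ranked anew, also when wells under 10000 CPM of cardiomyocyte markers were left out with them; edgeR then had 160 and 205 higher and 180 and 219 lower genes at an unadjusted p under 0.05. With no replicate block, that is without the mouse pairing, edgeR called 0 genes, with 237 higher and 274 lower at an unadjusted p under 0.05. With equal weight per cell the limma test called 0, with 381 higher and 60 lower at an unadjusted p under 0.05 and a median log2 value of 0.24 over all genes, and Ttn stood at 0.23, near that median. This weighting kept the 2 Tnni1-low wells of M25 bright with few counts of cardiomyocyte markers. Xirp2 in M25 stood at -0.23 without the highest cell of each group. The causes were not tested. The difference between bright and dim cells held 0 genes under library size scaling too. Leaving out a mouse leaves 1 mouse and no test.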
